A study of Mus musculus with 12 samples.

Results

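The 10 genes described here encode the machinery with which a cell displays peptides from its own cytosol: the MHC class I heavy chains H2-K1, H2-D1 and H2-Q7, the light chain B2m, the peptide transporter subunits Tap1 and Tap2, the loading factor Tapbp (tapasin) and the inducible catalytic subunits of the proteasome Psmb8, Psmb9 and Psmb10. They were chosen by symbol, and all 10 were found among the 40840 gene symbols with counts and passed the low-count filter that left 13570 genes for testing. RNA-seq was done on donor OTII cells, CD4+ T cells that carry a transgenic receptor for an OVA peptide, after transfer into WT recipients or recipients lacking Il6 (Il6-/-). All recipients were sensitized intranasally with house dust mite extract carrying LPS (HDM LPS) together with OVA, and the OTII cells were sorted from the mediastinal lymph nodes on Day 3 or Day 5. Each of the 4 groups (WT on Day 3, Il6-/- on Day 3, WT on Day 5 and Il6-/- on Day 5) has 3 libraries. The deletion is carried by the recipients and not by the donor cells, so that Il6 in the sorted cells does not check the labels. In the labels the tissue is blood, the OVA is free of LPS and no LPS is named for the extract. The study's account of sorting from lymph nodes is followed here. The ages of the mice and the number of mice behind a library are not given in the sources used here, so that the p-values measure the spread between these libraries, which may be technical.

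Class I molecules are made by nearly all nucleated cells. The proteasome cuts cytosolic proteins, the Tap1 and Tap2 transporter carries the peptides into the endoplasmic reticulum, tapasin holds the transporter and an empty heavy chain together, and the loaded heavy chain leaves for the surface with B2m. Interferons raise the whole set, partly through NLRC5 and IRF1, and replace the constitutive catalytic subunits Psmb5, Psmb6 and Psmb7 by Psmb8, Psmb9 and Psmb10 to form the immunoproteasome. T cells and other lymphocytes carry immunoproteasomes also without added interferon.

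The 12 libraries held between 16125947 and 26111657 counts on genes. The share of reads on genes was 60.2% to 62.2% in Day 3 libraries and 52.5% to 56.7% in Day 5 libraries. For reads outside genes it was 11.7% to 12.9% and 15.2% to 17.3%, and for reads aligned to more than 1 place 23.72% to 25.02% and 25.50% to 28.25%. None of these shares overlapped between the days. CD4 T cell markers summed to 7470 to 9230 CPM (counts relative to the TMM-scaled library size) in the libraries of Day 3 and to 12000 to 13800 CPM in those of Day 5. Markers of other cells were low: the 8 B cell markers summed to 6.55 to 16.6 CPM, the 10 myeloid and dendritic cell markers to 13.4 to 50.8 CPM and the 6 lung epithelium markers to 0.692 to 22.5 CPM, with Blk and Itgax at no more than 3 counts in each library. The sums of the B cell list went from 6.55 to 8.85 CPM on Day 3 and 8.99 to 11.5 CPM on Day 5 with WT recipients, against 13.8 to 14.6 CPM and 12.3 to 16.6 CPM with Il6-/- recipients. The 6 markers of CD8 T and NK cells summed to 62.4 to 114 CPM, most of it from Cd8b1, with Ncr1 and Klre1 at no more than 3 counts in each library. The 7 MHC class II genes summed to 71.7 to 123 CPM on Day 3 and 288 to 332 CPM on Day 5, most of it from H2-DMa, a chaperone of class II loading. The part of these shifts in the results below was not tested. In bulk RNA, a level cannot tell fewer cells of a type from less RNA per cell.

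On GRCm39 with the GENCODE vM39 gene models, 8 of the 10 genes lie on chromosome 17, in the mouse MHC. H2-K1 spans chr17:34214987-34219321 (minus strand), H2-D1 chr17:35481691-35486475 (plus strand) and H2-Q7 chr17:35658131-35662749 (plus strand). Psmb9 (chr17:34400960-34406738, minus strand), Tap1 (chr17:34405996-34416199, plus strand), Psmb8 (chr17:34416690-34420428, plus strand) and Tap2 (chr17:34422501-34435829, plus strand) follow one another, and Tapbp lies at chr17:34134873-34148267 (plus strand). B2m is at chr2:121977957-121983594 (plus strand) and Psmb10 at chr8:106662362-106665077 (minus strand). The counts were made without regard to strand. The models of Tap1 and Psmb9 share 743 exonic bases, 12.4% and 19.6% of their exon lengths, and Tapbp shares 923 exonic bases with Zbtb22 and 1130 with Gm19412, so that reads in these stretches cannot be told apart. Because the class I genes resemble each other, it was also counted how many of the 50-base windows of each gene's exons occur once in the genome. For H2-K1 the share was 83.0% and for H2-D1 83.8%, but for H2-Q7 it was 2.28%, so that its counts rest on a small part of the gene and are uncertain. The other 7 genes lay between 98.2% and 100%.

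The promoters of the 3 heavy chains and B2m are shown because these were the genes that rose most between the days. RefSeq promoter windows (GRCm38.p6) were found for 9 of the 10 genes, Tap2 being the exception. The 250 bases before the annotated start follow 5′ to 3′ on the strand of the gene. Capitals mark matches on either strand to 5 short motifs: GAAANNGAA (core of the interferon-stimulated response element), TTCNNNGAA (gamma-activated site), GGGNNTTCC (NF-kappaB site), CCAAT (the CCAAT box, ATTGG on the other strand) and TGACGC (a CRE-like element). The windows are chr17:34000348-34000597 (minus strand), chr17:35262844-35263093 (plus strand), chr17:35438905-35439154 (plus strand) and chr2:122147437-122147686 (plus strand), of which the first is the first of the starts given for H2-K1.
H2-K1: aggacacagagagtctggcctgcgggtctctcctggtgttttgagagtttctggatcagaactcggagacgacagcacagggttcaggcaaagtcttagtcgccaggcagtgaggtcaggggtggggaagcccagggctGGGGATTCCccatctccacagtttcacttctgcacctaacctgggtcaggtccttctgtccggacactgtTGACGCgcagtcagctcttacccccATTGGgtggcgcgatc
H2-D1: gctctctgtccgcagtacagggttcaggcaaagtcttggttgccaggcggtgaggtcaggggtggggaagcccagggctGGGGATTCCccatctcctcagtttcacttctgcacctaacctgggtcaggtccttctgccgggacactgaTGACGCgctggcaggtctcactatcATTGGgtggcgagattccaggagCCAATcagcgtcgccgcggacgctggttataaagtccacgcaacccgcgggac
H2-Q7: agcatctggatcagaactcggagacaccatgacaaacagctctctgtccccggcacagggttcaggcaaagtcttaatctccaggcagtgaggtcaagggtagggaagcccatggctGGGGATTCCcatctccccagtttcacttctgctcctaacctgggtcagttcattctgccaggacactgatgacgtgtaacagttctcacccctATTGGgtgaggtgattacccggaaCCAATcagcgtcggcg
B2m: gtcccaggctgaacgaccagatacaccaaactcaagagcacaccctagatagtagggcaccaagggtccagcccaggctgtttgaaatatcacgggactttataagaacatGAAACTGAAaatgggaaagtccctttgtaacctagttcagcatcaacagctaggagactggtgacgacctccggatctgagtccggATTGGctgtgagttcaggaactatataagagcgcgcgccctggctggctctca

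The upstream bases of H2-K1 and H2-D1 aligned over 190 bases, of which 87.4% were identical, and those of H2-K1 and H2-Q7 over 203 bases with 88.2% identical. GGGNNTTCC was found in all 3 heavy-chain promoters and in none of the other 6, at -111 in H2-K1, -171 in H2-D1 and -133 in H2-Q7 counted from the start. This motif was in 4.98% of the 32851 promoter windows of the table. GAAANNGAA was found in B2m (at -139; 7.13% of all windows) and TTCNNNGAA in Psmb8 (at -97; 7.02% of all windows). CCAAT was present in 7 of the 9 promoters, all but Psmb8 and Psmb10, and in 33.8% of all windows, and TGACGC in those of H2-K1 and H2-D1 and in 6.12% of all windows. None of these matches overlapped another. A match says only that the letters are present, and a missing match does not show that an interferon element is absent. The 3 heavy-chain promoters share the unmarked letters agtttcacttctg, which none of the searched motifs covers. Whether these letters form an interferon element was not tested.

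Between Day 3 and Day 5 the heavy chains and B2m rose in both recipient genotypes by 1.83- to 5.80-fold. The upper end is that of H2-Q7, whose counts are uncertain, and without it the largest rise was 2.92-fold (H2-K1 in Il6-/- recipients). The transporter, tapasin and immunoproteasome genes that were called rose by at most 1.36-fold. With edgeR's quasi-likelihood test and an FDR under 0.05, 8 of the 10 genes were higher on Day 5 in WT recipients (29.5% of all tested genes were called higher and 27.1% lower) and 8 of the 10 in Il6-/- recipients (30.4% higher and 30.1% lower). None was called lower in either. Tap1 and Psmb8 in WT and Psmb8 and Psmb10 in Il6-/- recipients did not pass. In all 10 genes the libraries of the days did not overlap in WT recipients, which held for 63.3% of all tested genes, nor in Il6-/- recipients, which held for 65.8%. Of these 10, Psmb8 in Il6-/- recipients lay lower on Day 5 and the others lay higher. The median log2 fold change of the 10 genes was 0.40 in WT and 0.43 in Il6-/- recipients, beside 0.09 in both for all tested genes. Of the genes called, 3 in WT (H2-K1, H2-Q7 and B2m) and 2 in Il6-/- recipients (H2-K1 and H2-Q7) also changed by at least 2-fold.

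H2-K1, one of the pair of classical heavy chains counted here, was at 1102, 1163 and 1120 CPM in the WT libraries of Day 3 and at 3470, 3158 and 3175 CPM in those of Day 5. In the Il6-/- libraries it was at 994, 1114 and 1060 CPM on Day 3 and at 3521, 2775 and 2955 CPM on Day 5. The days did not overlap in either genotype, whereas the genotypes overlapped on both days. Its log2 fold change from Day 3 to Day 5 was 1.53 (SE 0.08, FDR = 1.4e-08) in WT and 1.55 (SE 0.08, FDR = 5.9e-09) in Il6-/- recipients, a 2.90- and 2.92-fold rise. Among all genes it moved from rank 84 by counts on Day 3 to rank 14 on Day 5.

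H2-D1, the other classical heavy chain, gave the most counts of the 10 genes. Its WT libraries held 2631, 2673 and 2767 CPM on Day 3 and 5109, 4836 and 5002 CPM on Day 5, and its Il6-/- libraries 2285, 2505 and 2446 CPM and then 5149, 4544 and 4736 CPM. All libraries of Day 5 lay above all of Day 3, and on Day 3 the Il6-/- libraries lay below the WT libraries. The rise was 1.85-fold in WT (log2 fold change 0.89, SE 0.06, FDR = 4.4e-08) and 1.99-fold in Il6-/- recipients (1.00, SE 0.06, FDR = 1.4e-08).

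H2-Q7, which encodes the nonclassical molecule Qa-2, received far fewer counts. It was counted 78 to 171 times per WT library on Day 3 (3.04, 8.46 and 9.07 CPM) and 717 to 826 times on Day 5 (42.1, 37.7 and 33.7 CPM). In Il6-/- recipients the CPM were 3.91, 7.43 and 6.07 on Day 3 and 38.2, 33.1 and 29.8 on Day 5. Per kilobase of exon, its level on Day 5 in WT recipients was 8.86 CPM, against 1026 CPM for H2-K1 and 1665 CPM for H2-D1. These levels cannot be compared directly. Only 2.28% of the exon windows of H2-Q7 were unique, against 83.0% and 83.8%, and the full exon length was used for each gene. The rise was the largest of the 10 genes, at 5.60-fold in WT (log2 fold change 2.49, SE 0.29, FDR = 4.2e-06) and 5.80-fold in Il6-/- recipients (2.54, SE 0.30, FDR = 3.2e-06), within the limit set by the few unique windows of this gene.

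**Figure D1:**
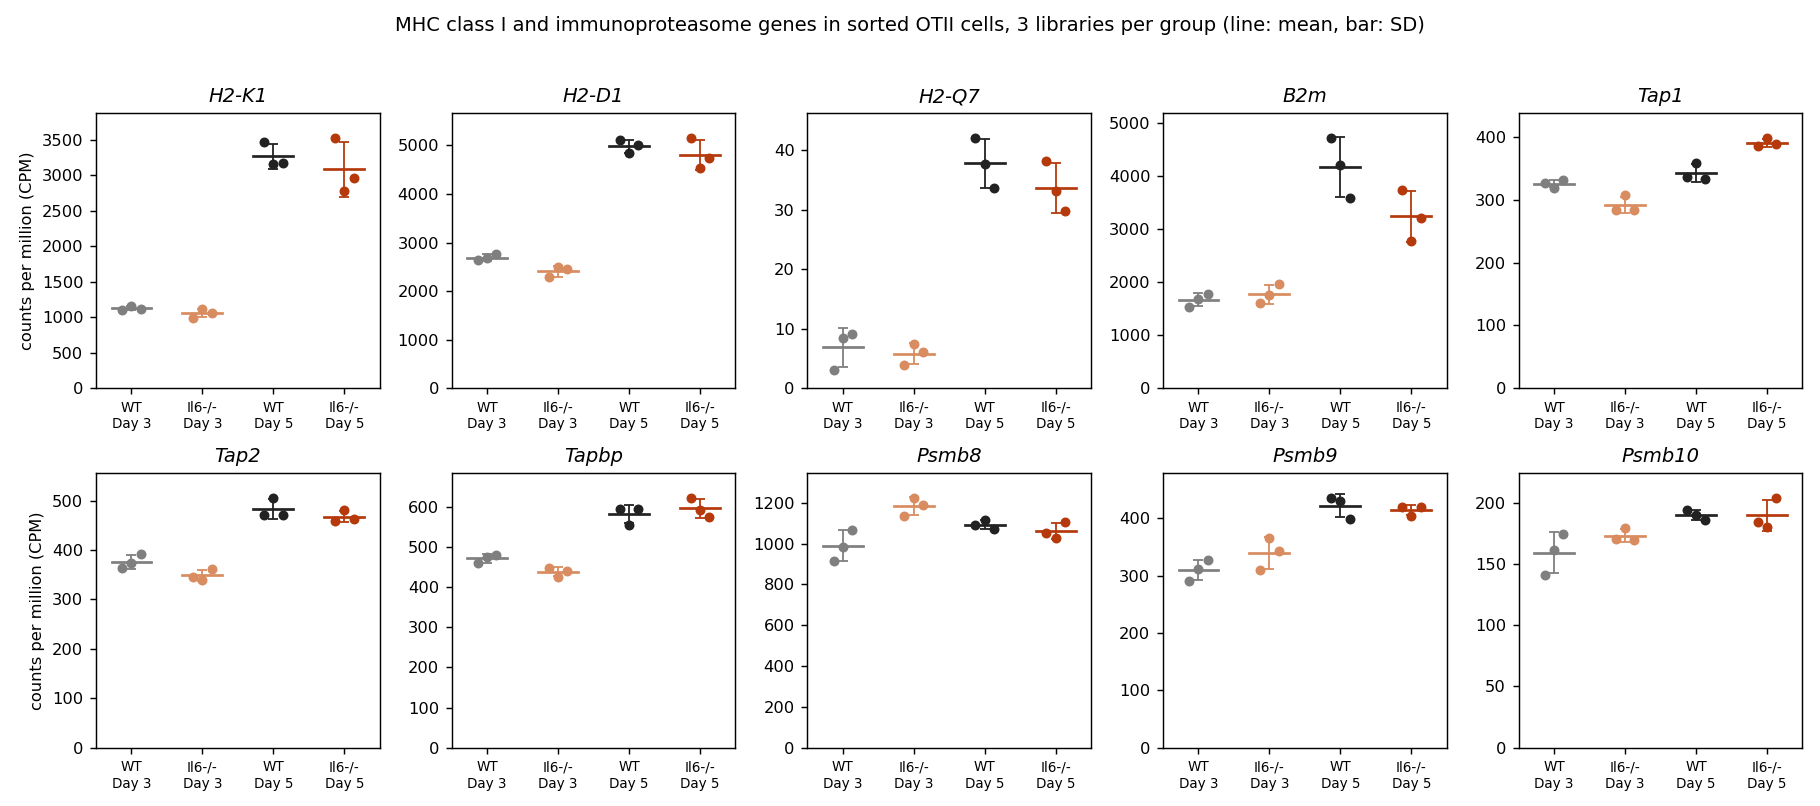
Each panel plots the CPM of 1 gene (y axis from 0) in the 12 libraries by recipient genotype and day (x axis), with points for libraries, lines for group means and bars for SD. H2-K1, H2-D1, H2-Q7 and B2m are higher in each Day 5 library than in each Day 3 library, whereas Psmb8 is highest in the Il6-/- libraries of Day 3.

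B2m, the light chain shared by class I molecules, was at 1537, 1684 and 1776 CPM in WT on Day 3 and at 4709, 4203 and 3576 CPM on Day 5. The Il6-/- libraries held 1602, 1756 and 1955 CPM on Day 3 and 3737, 2768 and 3199 CPM on Day 5. It rose 2.499-fold in WT (log2 fold change 1.32, SE 0.12, FDR = 2.4e-07) and 1.83-fold in Il6-/- recipients (0.87, SE 0.12, FDR = 1.1e-05). On Day 5 the libraries of the genotypes overlapped, since the lowest WT library lay below the highest Il6-/- library.

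The heavy chains did not rise evenly. The log2 ratio of H2-K1 to H2-D1 in reads per kilobase of exon was -1.34 ± 0.05 (SD, n = 3) in WT on Day 3 and -0.70 ± 0.05 on Day 5, and -1.28 ± 0.02 and -0.74 ± 0.09 in Il6-/- recipients. H2-K1 therefore went from 0.380 to 0.418 of the H2-D1 level on Day 3 to 0.574 to 0.642 on Day 5 over the libraries. With the days permuted within each genotype over all 12 libraries, the difference of 0.59 had an exact two-sided p = 0.005, the smallest this test can give, and p = 0.036 after Benjamini-Hochberg adjustment over the 36 ratio tests. Within 1 genotype the exact permutation test of 3 against 3 libraries cannot go below 0.1, which both genotypes reached. This ratio was chosen after the data were seen, and it cancels the scaling between libraries but not differences in exon models.

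The ratio of both heavy chains to B2m differed from the others in its pattern. Its log2 value with WT recipients was 0.67 ± 0.08 on Day 3 and 0.45 ± 0.17 on Day 5, and with Il6-/- recipients 0.44 ± 0.11 and 0.75 ± 0.10 (SD, n = 3 each). The Il6-/- libraries lay below the WT libraries on Day 3 and above them on Day 5 without overlap, each with an exact permutation p = 0.1, the smallest possible, and an adjusted p = 0.144. Averaged over both genotypes the days differed by 0.05 (exact permutation p = 0.66).

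**Figure D2:**
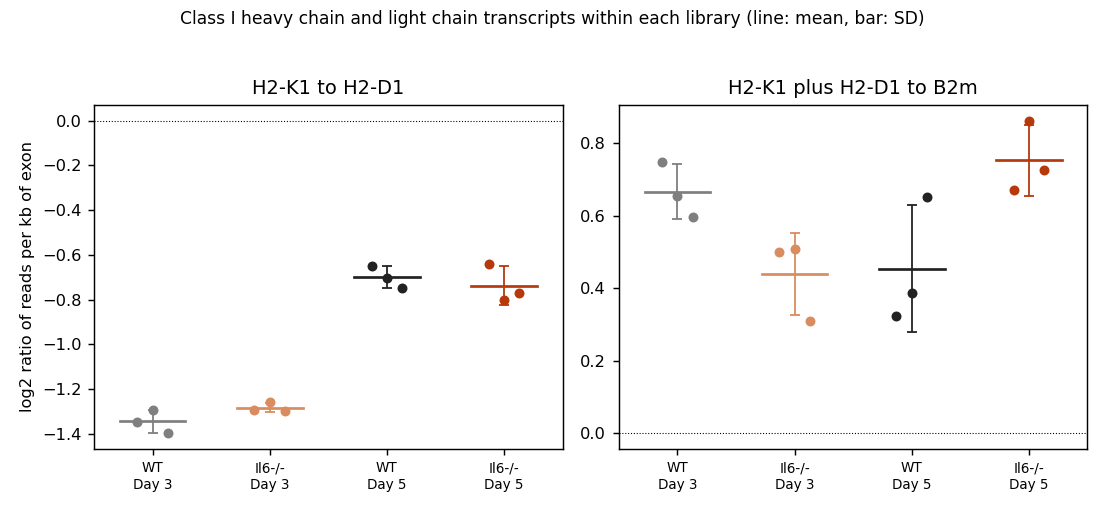
The log2 ratio of reads per kilobase of exon (y axis) is plotted for H2-K1 to H2-D1 and for their sum to B2m in the 12 libraries by group (x axis), with lines for means and bars for SD. The first ratio parts the days, at -1.34 and -1.28 on Day 3 against -0.70 and -0.74 on Day 5, and the second is below WT in Il6-/- recipients on Day 3 and above WT on Day 5.

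Of the transporter and loading genes, Tap2 and Tapbp rose moderately in both genotypes. Tap2, a subunit of the peptide transporter, was between 364 and 392 CPM in WT on Day 3 and between 471 and 506 CPM on Day 5, and in Il6-/- recipients between 340 and 361 CPM and then between 459 and 480 CPM. Its log2 fold change was 0.36 (SE 0.06, FDR = 0.00025) in WT and 0.42 (SE 0.06, FDR = 4.7e-05) in Il6-/- recipients. Tapbp went from between 460 and 481 CPM to between 556 and 595 CPM in WT and from between 425 and 447 CPM to between 574 and 623 CPM in Il6-/- recipients. The log2 fold changes of Tapbp were 0.30 (FDR = 0.0009) and 0.45 (FDR = 2.3e-05), with an SE of 0.06 each.

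Tap1, the other transporter subunit, was at 327, 320 and 332 CPM in WT on Day 3 and at 336, 359 and 334 CPM on Day 5. In Il6-/- recipients it was at 284, 308 and 284 CPM on Day 3 and at 387, 399 and 390 CPM on Day 5. The Il6-/- libraries were thus the lowest on Day 3 and the highest on Day 5, and no group overlapped another. In Il6-/- recipients Tap1 rose 1.34-fold (log2 fold change 0.42, SE 0.07, FDR = 4.7e-05), and in WT recipients its log2 fold change of 0.07 (SE 0.07, FDR = 0.36) did not pass, except with upper-quartile scaling (0.27, FDR = 0.0025). The difference between these changes was 0.35 (SE 0.09, FDR = 0.042 by edgeR's quasi-likelihood test), the only interaction called among the 10 genes, where 1.8% of all tested genes were called higher and 3.12% lower. It passed in 2 of 12 fits that left out 1 library, with FDR from 0.032 to 0.11 and log2 differences from 0.33 to 0.40 over those fits. Nor did it pass without the low-count filter (FDR = 0.085). The fits without WT Day 3 replicate 1, 2 or 3, WT Day 5 replicate 1, 2 or 3, Il6-/- Day 3 replicate 1, 2 or 3 and Il6-/- Day 5 replicate 3 each lost the call.

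The immunoproteasome subunits changed little between the days. Psmb9, the inducible counterpart of Psmb6, rose from 291, 312 and 327 CPM to 436, 431 and 399 CPM in WT and from 310, 365 and 343 CPM to 420, 404 and 419 CPM in Il6-/- recipients. Its log2 fold change was 0.44 (SE 0.08, FDR = 0.00015) in WT and 0.29 (SE 0.08, FDR = 0.0042) in Il6-/- recipients. Psmb10, the counterpart of Psmb7, rose in WT from 141, 161 and 175 CPM to 194, 190 and 186 CPM, with a log2 fold change of 0.26 (SE 0.08, FDR = 0.016), which did not pass without WT Day 3 replicate 1 (0.17, FDR = 0.11) or without the low-count filter (0.19, FDR = 0.14). In Il6-/- recipients Psmb10 went from between 170 and 179 CPM to between 181 and 204 CPM, which did not pass (0.13, SE 0.08, FDR = 0.18) but did with upper-quartile scaling (0.36, FDR = 0.0026) and without scaling (0.28, FDR = 0.0079).

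Psmb8, the counterpart of Psmb5 and the most abundant of the inducible subunits per kilobase of exon, was at 916, 985 and 1067 CPM in WT on Day 3 and at 1091, 1116 and 1072 CPM on Day 5. The Il6-/- libraries held 1136, 1224 and 1188 CPM on Day 3 and 1053, 1027 and 1106 CPM on Day 5. Its log2 fold changes of 0.14 (SE 0.07, FDR = 0.084) in WT and -0.16 (SE 0.07, FDR = 0.059) in Il6-/- recipients did not pass, and their difference of -0.30 (SE 0.10, FDR = 0.088) did not either. With upper-quartile scaling the change in Il6-/- recipients was 0.074, the opposite sign, and the WT change passed (0.34, FDR = 0.0012), as it did without scaling (0.19, FDR = 0.023). The Il6-/- change passed as a fall without the low-count filter (-0.21, FDR = 0.034) and with DESeq2 (-0.17, FDR = 0.046). Without WT Day 3 replicate 3 the WT change passed (0.20, FDR = 0.038), and without WT Day 3 replicate 1 or 3 the Il6-/- change passed (FDR = 0.044 and 0.048).

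**Figure D3:**
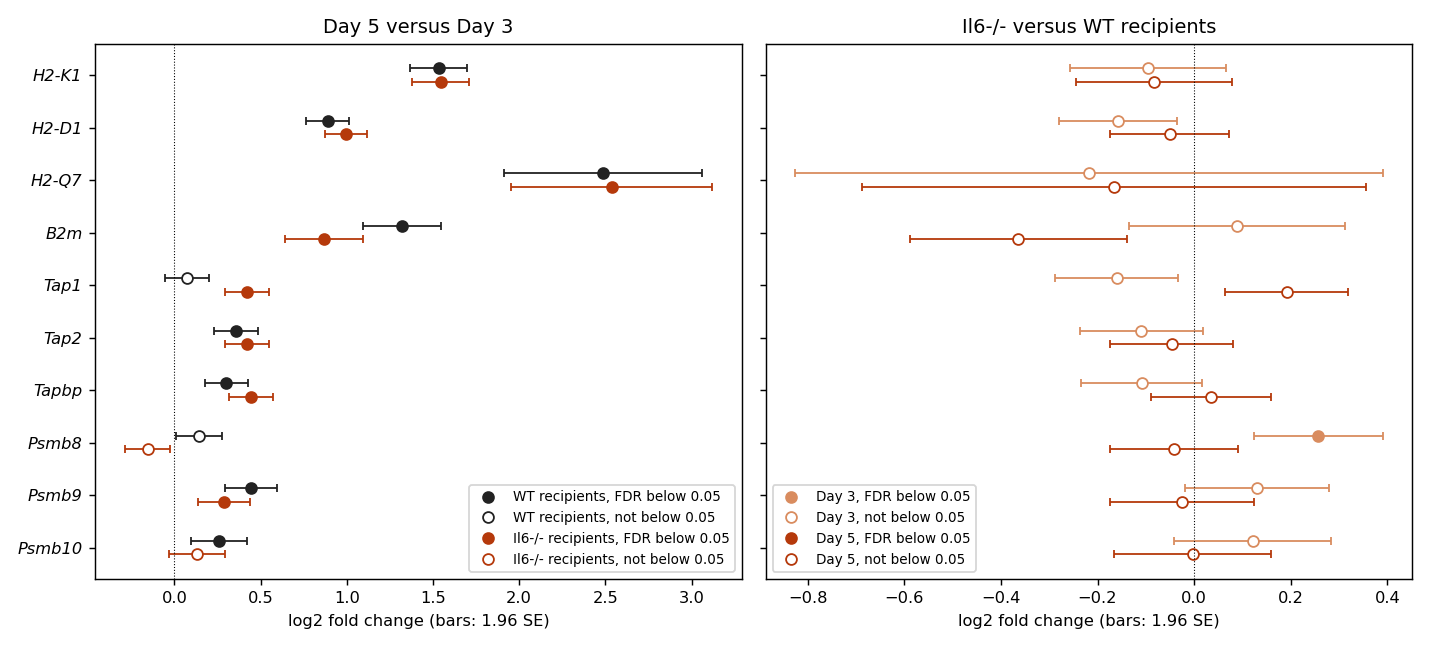
The log2 fold change of each of the 10 genes (x axis, with the bars given on the axis in units of SE) is shown for Day 5 against Day 3 in each genotype and for Il6-/- against WT on each day, with filled points for an FDR below 0.05 in edgeR's quasi-likelihood test. The largest changes over time are those of H2-Q7 at 2.49 and 2.54, and 1 filled point, Psmb8 on Day 3 at 0.26, stands in the comparison of genotypes.

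While the inducible subunits rose or kept near their Day 3 level, the constitutive ones fell, and the ratio between them changed more than any inducible subunit did. Psmb5, Psmb6 and Psmb7 were called lower on Day 5 in both genotypes, with log2 fold changes of -0.52, -0.38 and -0.83 in WT and -0.68, -0.66 and -0.96 in Il6-/- recipients (FDR of at most 0.00029). For Psmb5, 51.1% of the 50-base exon windows were unique. The mean log2 ratio over Psmb8 to Psmb5, Psmb9 to Psmb6 and Psmb10 to Psmb7 was 0.73, 0.80 and 0.85 in the WT libraries of Day 3 and 1.74, 1.65 and 1.57 in those of Day 5. In Il6-/- recipients it was 0.68, 0.70 and 0.72 on Day 3 and 1.68, 1.46 and 1.52 on Day 5. The libraries of the days did not overlap.

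The ratio rose by 0.86 on the log2 scale in WT and by 0.86 in Il6-/- recipients, 1.82- and 1.81-fold, each with an exact permutation p = 0.1, the smallest that 3 against 3 libraries can give. With the days permuted within both genotypes together, a test added after the data were seen, the exact two-sided p was 0.005 (0.036 adjusted over the 36 ratio tests), the smallest possible. Among the pairs the difference over time was 0.60 for Psmb8 to Psmb5, 0.89 for Psmb9 to Psmb6 and 1.09 for Psmb10 to Psmb7, averaged over the genotypes. Only Psmb9 to Psmb6 stayed below 1 in all libraries, at 0.369 to 0.458 on Day 3 and 0.736 to 0.838 on Day 5. Whether a pair lies above or below 1 depends on the lengths of the exon models. In CPM, without division by length, Psmb9 was at 421.8 and Psmb6 at 302.5 in WT on Day 5. Taking the summed subunits in place of the mean of the pairs gave smaller rises, 0.68 in WT and 0.67 in Il6-/- recipients.

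Between genotypes the mean ratio differed little. It was lower in Il6-/- recipients by 0.10 on the log2 scale on Day 3 (0.70 ± 0.02 against 0.79 ± 0.06, SD, n = 3 each, exact permutation p = 0.1) and by 0.10 on Day 5 (1.55 ± 0.11 against 1.66 ± 0.09, exact permutation p = 0.3). The pairs differed in direction on Day 3, where Psmb8 to Psmb5 was higher in Il6-/- recipients by 0.08 and Psmb9 to Psmb6 and Psmb10 to Psmb7 differed by -0.18 and -0.19, each without overlap and with an exact permutation p = 0.1, the smallest possible. On Day 5 the pairs differed by -0.05, -0.06 and -0.20, with overlap. Permuting the genotypes of the mean ratio within both days gave an exact p = 0.045, which became 0.144 after adjustment over the 36 ratio tests.

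**Figure D4:**
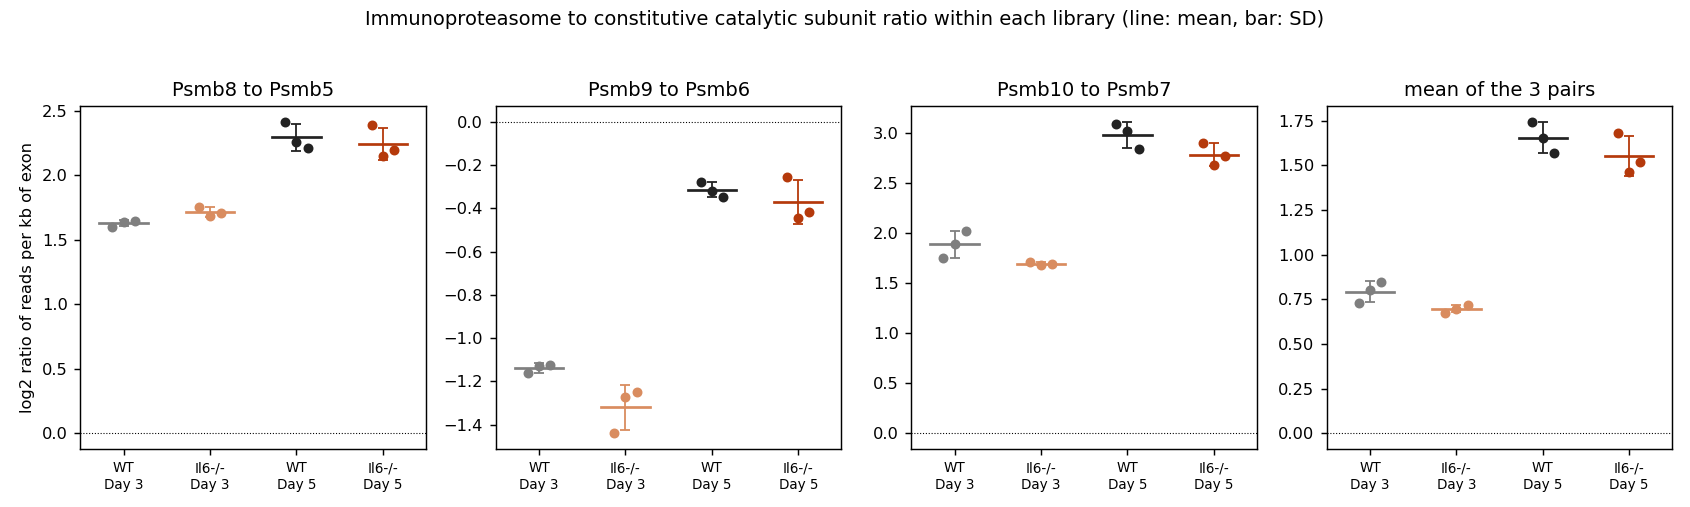
The log2 ratio of reads per kilobase of exon of each inducible subunit to its constitutive counterpart, and the mean of the 3 pairs, is plotted on the y axis for the 12 libraries by group, with lines for means and bars for SD. Each ratio is higher in the libraries of Day 5 than in those of Day 3, and the mean goes from 0.68 to 0.85 on Day 3 up to 1.46 to 1.74 on Day 5.

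Il6-/- and WT recipients differed in few of the 10 genes. On Day 3, 1 gene was called higher in Il6-/- recipients and 0 lower (7.52% of all tested genes were called higher and 6.19% lower). It was Psmb8, at 1183 ± 44.2 CPM against 989.5 ± 75.5 CPM (SD, n = 3 each), a log2 fold change of 0.26 (SE 0.07, FDR = 0.020) in which the groups did not overlap. The call was lost with upper-quartile scaling (FDR = 0.071), without scaling (FDR = 0.061) and in 4 of 12 fits that left out 1 library, those without WT Day 3 replicate 1 or 2 or Il6-/- Day 3 replicate 2 or 3, which gave FDR from 0.054 to 0.087. The values of H2-D1 (log2 fold change -0.16, SE 0.06, FDR = 0.12) and Tap1 (-0.16, SE 0.07, FDR = 0.12) lay below WT without overlap and did not pass, but both did without Il6-/- Day 5 replicate 2 (FDR = 0.035 and 0.046). The groups did not overlap in 5 of the 10 genes, as in 36.2% of all tested genes. The median over the 10 genes was -0.10, beside 0.01 for all tested genes.

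On Day 5 none of the 10 genes passed the edgeR test (1.27% of all tested genes were called higher and 3.35% lower), although 2 had an unadjusted p under 0.05. These were B2m, with a log2 fold change of -0.36 (SE 0.11, FDR = 0.085 by edgeR), and Tap1, with 0.19 (SE 0.07, FDR = 0.11 by edgeR). The sample titles number the replicates and state no pairing. A pairing of same-numbered libraries on this day was inferred from these data, from correlations of 0.243, 0.206 and 0.129. Differently numbered libraries gave -0.182 to -0.0316. All these values were computed after subtracting the group means, which ties them to one another. They come from the same expression values as the tests, and whether the agreement by number arose by chance was not tested. With the replicate as a block in edgeR both passed, B2m at -0.37 (FDR = 0.0035) and Tap1 at 0.19 (FDR = 0.047), so that these calls depend on that inference. Within each numbered pair B2m was lower in the Il6-/- library, at 3737 against 4709, 2768 against 4203 and 3199 against 3576 CPM. DESeq2 called Tap1 (FDR = 0.015) and limma-voom called neither. B2m also passed in edgeR without the low-count filter (FDR = 0.00016), without WT Day 5 replicate 3 (-0.46, FDR = 0.022) and without Il6-/- Day 5 replicate 1 (-0.48, FDR = 0.018). H2-K1 and H2-D1 differed by -0.08 and -0.05 on the log2 scale, with approximate normal intervals from -0.25 to 0.08 and from -0.17 to 0.07.

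The block also changed the calls of the interaction. It pairs same-numbered libraries on both days, although those of Day 3 did not deviate together (correlations 0.0333, 0.0599 and 0.0325). The calls with the block in this paragraph use both days, and so rest in part on a pairing that the Day 3 libraries do not show. In edgeR with the block, Tap1 (0.35, FDR = 0.014), B2m (-0.45, FDR = 0.0086) and Psmb8 (-0.30, FDR = 0.024) passed, where without it B2m had an FDR of 0.13 and Psmb8 of 0.088. Leaving out WT Day 5 replicate 3 or Il6-/- Day 5 replicate 1 gave B2m -0.55 (FDR = 0.043) and -0.57 (FDR = 0.038) without the block. Averaged over both days, 0 of the 10 genes were called by edgeR, DESeq2 or limma-voom (7.62% of all tested genes were called higher and 7.13% lower by edgeR), and 2 had an unadjusted p under 0.05 in edgeR. They were H2-D1 (-0.10, FDR = 0.13 by edgeR) and Psmb8 (0.11, FDR = 0.15 by edgeR). With the block, or without Il6-/- Day 5 replicate 1 (-0.13, FDR = 0.046), H2-D1 passed.

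The other class I genes moved with the members over time. Of 22 listed heavy chains and relatives 14 could be tested, and 12 of these were called higher and 0 lower on Day 5 in each genotype. Over all tested genes, 29.5% were called higher in WT and 30.4% in Il6-/- recipients. The median log2 fold change of the 14 was 0.94 in WT and 1.18 in Il6-/- recipients. H2-T23, which encodes Qa-1, went from 273.9 ± 17.2 to 519.5 ± 22.01 CPM in WT and from 209 ± 13.2 to 479 ± 54.9 CPM in Il6-/- recipients, and was lower in Il6-/- recipients on Day 3 (-0.39, SE 0.09, FDR = 0.0087). H2-M3, which presents formylated peptides, rose by 0.95 in WT and 0.70 in Il6-/- recipients on the log2 scale. Cd1d1, which presents lipids to NKT cells, rose by 0.94 and 1.56 and was lower in Il6-/- recipients on Day 3 (-0.59, SE 0.12, FDR = 0.0053). On Day 3 H2-Q2 was at 36.9 ± 5.2 CPM with WT recipients and at 6.32 ± 0.84 CPM with Il6-/- recipients, a log2 fold change of -2.54 (SE 0.38, FDR = 0.00055), and spread from 45.6 to 92.4 and from 28.6 to 106.7 CPM on Day 5. Of the exon windows of H2-Q6, 1.83% were unique, and its rise of 2.98 in WT is as uncertain as that of H2-Q7.

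Other genes of peptide loading did not rise with them. Of 10 tested, 6 were called lower and 1 higher on Day 5 in WT and 5 lower and 0 higher in Il6-/- recipients. Over all tested genes, 27.1% were called lower and 29.5% higher in WT, and 30.1% lower and 30.4% higher in Il6-/- recipients. The chaperones Canx (-1.21 and -1.15), Calr (-0.79 and -0.88) and Pdia3 (-0.50 and -0.52) and the trimming peptidase Erap1 (-0.28 and -0.33) fell in both genotypes on the log2 scale. Sec61g, a subunit of the protein channel of the endoplasmic reticulum, rose in WT (0.25). Among peptidases of the cytosol, 4 of 5 tested were called lower in WT and 5 of 5 in Il6-/- recipients, beside the same shares of all tested genes.

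The rest of the proteasome fell. Of 14 other genes of the 20S core and its assembly, 13 were called lower and 0 higher on Day 5 in each genotype. Of 17 genes of the 19S regulator, 16 were called lower in each. Over all tested genes, 27.1% were called lower in WT and 30.1% in Il6-/- recipients. The subunits Psme1 and Psme2 of the interferon-inducible 11S activator rose in WT (0.45 and 0.36 on the log2 scale), and Psme1 also in Il6-/- recipients (0.21), whereas Psme3, the nuclear activator, fell in both genotypes (-1.05 and -1.34). On Day 3, 8 of the 14 core and assembly genes, 5 of the 19S genes, Psmb6 and Psmb7 and the activators Psme1, Psme2 and Psme3 were called higher in Il6-/- recipients. None of these lists held a gene called lower. Over all tested genes, 7.52% were called higher and 6.19% lower on Day 3. On that day Psme2 was at 384 ± 23.1 CPM with WT recipients and at 536 ± 25.2 CPM with Il6-/- recipients (log2 fold change 0.48, SE 0.08, FDR = 0.00094). On Day 5 none of these lists held a called gene in edgeR (1.27% of all tested genes were called higher and 3.35% lower). An unadjusted p under 0.05 was found for 4 of the 19S genes, 1 of the constitutive catalytic genes and 0 of the other core genes and of the activators.

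Among regulators of class I transcription, Nlrc5, the class I transactivator, went from 83.6 ± 2.4 CPM to 175.3 ± 15.1 CPM in WT and from 79.3 ± 5.4 to 187.3 ± 19.3 CPM in Il6-/- recipients, a 2.10- and 2.36-fold rise (FDR = 1.8e-07 and 4.0e-08). Irf1 rose 1.88- and 1.91-fold (FDR = 1.3e-07 and 7.8e-08). Neither passed between genotypes on either day in edgeR. The subunits of the factor that binds the CCAAT box fell in both genotypes, Nfya by 0.79 and 0.75, Nfyb by 0.71 and 0.81 and Nfyc by 0.51 and 0.36 on the log2 scale. Rfxap, a subunit of the RFX complex, was lower in Il6-/- recipients on Day 5 (-1.36, SE 0.22, FDR = 0.0031). Of 12 components of interferon and JAK-STAT signalling, 9 were called higher on Day 5 in WT and 10 in Il6-/- recipients, and none lower. Over all tested genes, 29.5% and 30.4% were called higher. On Day 3, 5 of the 12 were called lower in Il6-/- recipients (6.19% of all tested genes). Among them were Stat2 (-0.56, FDR = 0.00049), Irf9 (-0.44, FDR = 0.0028) and Ifnar2 (-0.55, FDR = 0.00035). Averaged over the days, 6 of the 12 were called lower in Il6-/- recipients and 1 higher (7.13% and 7.62% of all tested genes). The 1 called higher was Ifng, with a log2 fold change of 1.57. Ifng, the gene of the cytokine that most induces the immunoproteasome, rose by 3.24 (SE 0.63) in WT and 2.28 (SE 0.53) in Il6-/- recipients on the log2 scale. It was near the floor, with 0 to 11 counts per WT library on Day 3. Its mean levels with WT and Il6-/- recipients were 0.233 and 0.985 CPM on Day 3, and 2.25 and 4.80 CPM on Day 5. Socs1, an inhibitor of interferon signalling, was lower in Il6-/- recipients on Day 5 (-1.03, SE 0.16, FDR = 0.0028).

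**Figure D5:**
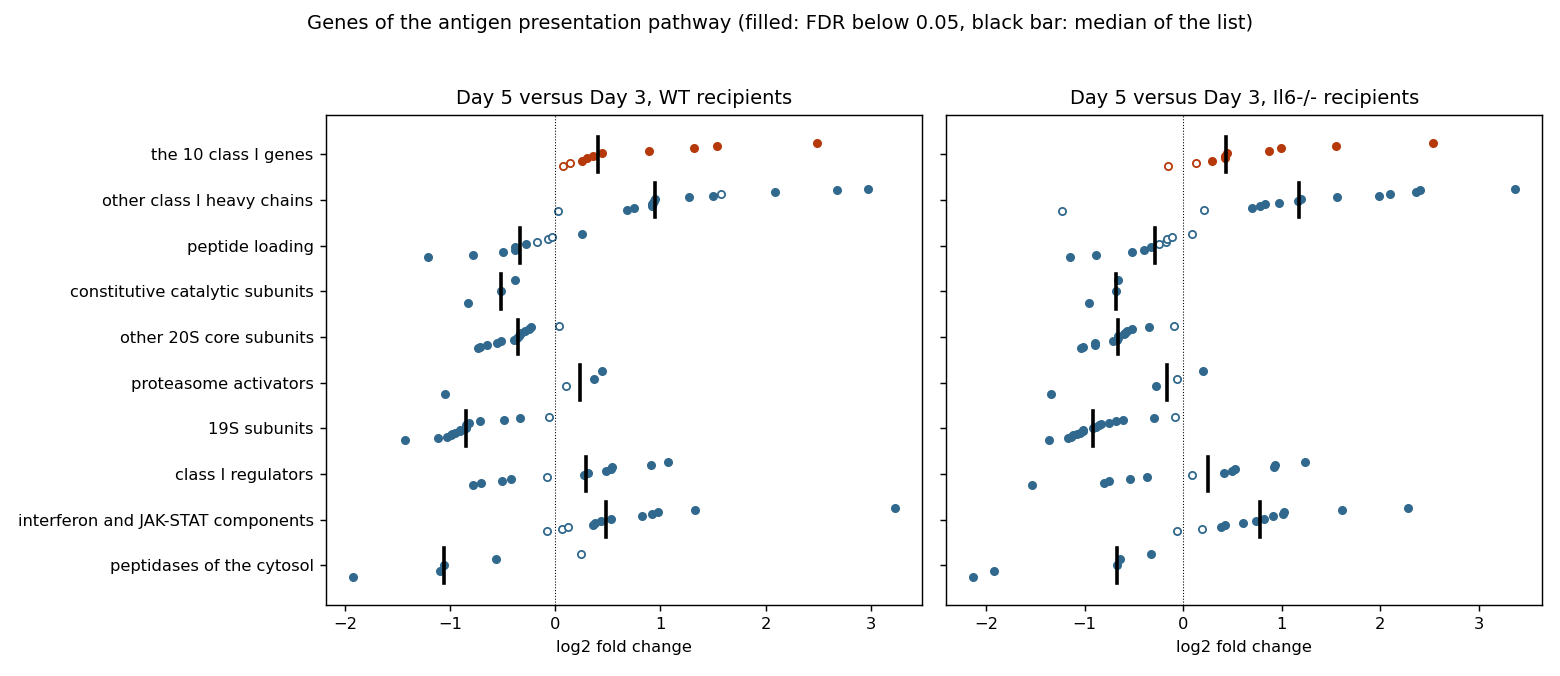
Each point is the log2 fold change from Day 3 to Day 5 (x axis) of 1 tested gene, arranged by list (y axis) for each genotype, filled where the FDR is below 0.05, with a black bar at the median of the list. The 10 class I genes (medians 0.40 and 0.43) and the other heavy chains (0.94 and 1.18) lie mostly above 0, and the 20S core (-0.36 and -0.67) and 19S genes (-0.85 and -0.91) below.

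Neighbours of the members on chromosome 17 did not share the rise as a block. Between 34134873 and 35662749, 72 genes that are not members were tested, of which 37.5% were called higher on Day 5 with WT recipients and 38.9% with Il6-/- recipients. Without the genes named H2- the 59 left gave 28.8% and 30.5%, near the 29.5% and 30.4% of all tested genes.

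The genes whose log2 CPM followed the mean of the 10 standardized members most closely over the 12 libraries were Gm32999 (Pearson r = 0.988), Fbxo25 (0.984), Eif3h (0.984), Naxe (0.983) and N4bp2l1 (0.983), out of 8313 compared. These values share the difference between the days. After the mean of each day was subtracted, the most similar genes were Borcs8 (r = 0.905), Nt5c (0.875), Mien1 (0.861), Dzip1 (0.859) and Fbxo25 (0.859). Of the members themselves, H2-Q7 followed the mean most closely then (0.898) and Tap1 least (0.0635). Each member is part of this mean, so that these values are not comparable with those of the other genes. The libraries share depth and scaling, and the values are given as a description over 12 libraries.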

How the data were processed

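Poly(A) RNA of 12 libraries was sequenced as single-end 50-base reads. For trimming, alignment and counting the authors used Trim Galore 0.4.4, STAR 2.5.2a on GRCm39 and, regardless of strand, HTSeq-count 0.6.1p1. The deposited values used are raw counts. The deposited log2 CPM table was not used. In R 4.3.3, edgeR 4.0.16 kept 13570 genes by filterByExpr, scaled libraries by TMM and fitted 1 quasi-likelihood model with 1 coefficient per group. A call is an FDR under 0.05 over all tested genes. CPM use TMM-scaled library sizes. Ratios used exact two-sided permutation tests. The scripts were tested on simulated counts. Alternatives were other scalings and filters, DESeq2 1.42.0, limma-voom (limma 3.58.1), a replicate block, fewer libraries and a 2-fold limit. The members and lists were chosen with earlier results of these data known. Named genes are the members, pathway genes that passed, exon-overlapping genes, markers, the constitutive counterparts, Nlrc5, Irf1 and the 5 genes most like the members, and 1 further gene of the rule is not reported here. Lap3 and Npepps were named after their values were seen. Same-numbered libraries of the genotypes deviated together on Day 5 (correlations 0.243, 0.206 and 0.129) but not on Day 3 (0.0333, 0.0599 and 0.0325). A pairing by number was inferred from these values for Day 5 only, and the sample titles state none. Of the gene symbols, 79.5% matched GENCODE vM39.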

Additional observations from a re-analysis of the deposited data

Results flagged for a closer look

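Effects of the recipient genotype that differed between the days, by the interaction term of edgeR's quasi-likelihood model (Day 5 minus Day 3, log2 scale, FDR under 0.05), were found for 11 of the 101 tested genes of the members and pathway lists, 6 higher (5.94%) and 5 lower (4.95%), beside 1.8% and 3.12% of all tested genes. Tap1 was the only member, with 0.35. A positive difference was also found for H2-Q2 (2.45), Cd1d1 (0.62), Ifnar2 (0.44), Stat2 (0.67) and Irf9 (0.55), and a negative one for Psmg2 (-0.48), Psme2 (-0.42), Rfxap (-1.46) and the cytosolic peptidases Lap3 (-0.82) and Npepps (-0.56). H2-Q2 went from 36.9 to 69.5 CPM between the days with WT recipients and from 6.32 to 65.5 CPM with Il6-/- recipients. Lap3 was lower on Day 5 in both genotypes, with log2 fold changes of -1.10 in WT and -1.92 in Il6-/- recipients. Cd74, a class II marker outside these lists, had -1.04 (FDR = 0.020). The lists were chosen with results known, and no explanation was tested.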

How the results depend on the processing

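The 3 heavy chains, B2m, Tap2, Tapbp and Psmb9 were called higher on Day 5 in both genotypes in the reported fit and in each of 20 alternative fits. Upper-quartile scaling called all 10 members in WT and 9 in Il6-/- recipients, and no scaling 9 in each. Upper-quartile scaling moved the median log2 fold change of all genes over time from 0.09 to 0.29 in WT and from 0.09 to 0.32 in Il6-/- recipients, and no scaling to 0.14 and 0.24. Psmb8 in Il6-/- recipients had a change over time of 0.074 with upper-quartile scaling, the opposite sign of -0.16. On Day 3, the number of members called between genotypes was 0 with upper-quartile scaling or a 2-fold limit, 2 with no scaling, 2 with the replicate block, 3 with only the compared groups, and 0 to 3 leaving out 1 library. On Day 5 it was 1 without the low-count filter, 1 with DESeq2, 2 with the replicate block and 0 to 1 leaving out 1 library, and averaged over the days 1 with the block and 0 to 1 leaving out 1 library. Over time, 3 in WT and 2 in Il6-/- recipients passed with a 2-fold limit, against 7 to 9 in WT and 8 to 9 in Il6-/- recipients when 1 library was left out. For the interaction it was 3 with the replicate block, 0 with a 2-fold limit and 0 to 2 leaving out 1 library. The rise of the immunoproteasome ratio was 0.68 in WT and 0.67 in Il6-/- recipients with summed subunits. Permuting the genotypes within both days gave -0.062 (exact permutation p = 0.1) with summed subunits, against -0.10 (p = 0.045). Without the low-count filter the FDR of B2m between genotypes on Day 5 was 0.00016 in place of 0.085. Over all genes, the 626 calls of Day 5 became 1592 with the block, 1397 without the filter, 1127 with DESeq2 and 359 with only the compared groups, and the 668 of the interaction 1564, 1300 and 1132 with the first 3 of these. Leaving out 1 library gave 225 (without WT Day 5 replicate 1) to 1169 (without Il6-/- Day 5 replicate 1) calls on Day 5, 235 (without WT Day 3 replicate 2) to 943 (without WT Day 5 replicate 3) for the interaction and 942 (without WT Day 3 replicate 2) to 2042 (without Il6-/- Day 5 replicate 2) on Day 3, against 1861. The cause of these shifts was not tested. On Day 3 same-numbered libraries did not deviate together, and the block there added H2-D1. With 3 libraries per group, differences of the size of that of Psmb8 on Day 3 passed or failed with the settings.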

Other observations

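Over the libraries, H2-K1, H2-D1 and B2m together took 0.464% to 0.553% of the counts on Day 3 and 1.07% to 1.34% on Day 5. All 10 members took 0.720% to 0.825% and then 1.40% to 1.66%. By counts, H2-D1 ranked 25 among all genes on Day 3 and 7 on Day 5, and B2m 44 and 12, while Psmb8 ranked 85 and 89.

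MHC class II transcripts were low beside class I. H2-DMa nevertheless rose by 2.09 in WT and 1.82 in Il6-/- recipients on the log2 scale (FDR = 2.6e-08 and 4.0e-08 by edgeR), and Cd74, the invariant chain, was higher in Il6-/- recipients on Day 3 by 1.30 (SE 0.16, FDR = 0.00017 by edgeR).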
